A study of Mus musculus with 12 samples.

Results

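The genes described here are 46 ribosome biogenesis and nucleolar genes, chosen by name from a fixed list of RNA polymerase I subunits and factors, small nucleolar ribonucleoprotein (snoRNP) proteins, nucleolar chaperones and assembly factors of the small and large ribosomal subunits. They were matched by gene symbol among 54146 genes with a count, by a rule that uses names and no measured value, although the list was drawn up with earlier results of these data known. All 46 were found, and all passed the minimum mean normalised count of 100 in every comparison.

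RNA was sequenced from mouse embryonic stem cells (mESCs) of the C57BL/6 strain with the genotype Prdm10F/F; Rosa26-CreERT2, shared by all 12 libraries. Prdm10 encodes a zinc finger transcription factor, the floxed allele carries loxP sites around an exon, and the CreERT2 recombinase, expressed from the ubiquitously active Rosa26 locus, enters the nucleus when 4-hydroxytamoxifen (4-OHT) is given. Cells grown on gelatin in medium with serum and LIF received 50 nM 4-OHT or the same volume of ethanol for 24 h and were harvested at Day 2 or Day 4, which gives 4 groups of 3 libraries, Day2_EtOH, Day2_OHT, Day4_EtOH and Day4_OHT. Every group carries the floxed allele and the recombinase, and no group received 4-OHT without the floxed allele, so 4-OHT, recombinase activity and loss of the exon cannot be told apart. Nothing in the labels says that the 3 libraries of a group came from separate cultures, so the p-values measure the spread between these libraries, which may be technical. The study's general statement on statistics gives 3 or more independent biological repeats for its experiments unless a legend says otherwise.

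Ribosome biogenesis starts in the nucleolus, where RNA polymerase I transcribes the rRNA precursor. Box C/D and box H/ACA snoRNPs modify that precursor, and the small subunit processome and the large subunit assembly factors fold, cleave and package it into the subunits. The pathway is highly active in growing and dividing cells such as mESCs, and many of its genes are known targets of the MYC family of transcription factors.

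Library totals were 35017667 to 41409992 expected counts. The gene-level count of Prdm10 was higher in the libraries labelled OHT, at 2161 ± 77.7 against 796 ± 32.8 normalised counts at Day 2 and 2027 ± 69.7 against 877 ± 46.6 at Day 4 (mean ± SD, n = 3), a log2 fold change of 1.44 and 1.21. A gene-level count does not resolve the floxed exon and checks nothing about its removal, so each group keeps the name its label gives it. The study reported its own checks of recombination in cells of this genotype, made on DNA, RNA and protein. The 8 mESC markers were present in every library (Pou5f1 353.8 to 474.8 TPM, a transcript level scaled for length and depth). Of the 27 markers of fibroblasts, primitive endoderm, trophectoderm and germ layers, Tfap2c (26.8 to 34.2 TPM) and Nes (3.43 to 4.79 TPM) were highest. Thy1 was the highest fibroblast marker, at 0.59 to 2.84 TPM. The other fibroblast markers, Col1a1, Col1a2 and Col3a1 among them, stayed at or below 0.27 TPM. The summed fibroblast markers were 2.55 to 3.00 TPM in the Day2_OHT libraries against 2.76 to 3.39 in Day2_EtOH, and 1.07 to 1.62 in Day4_OHT against 2.39 to 3.22 in Day4_EtOH. Summed mESC markers were higher in OHT without overlap, at 2230 to 2382 against 2139 to 2178 TPM at Day 2 and 2449 to 2546 against 2099 to 2360 at Day 4. Dppa5a alone was 1127 to 1479 TPM over all libraries, so this sum mostly reads that gene. At Day 4 the trophectoderm sum, nearly all of it Tfap2c, was 34.9 to 35.8 TPM in OHT against 28.2 to 29.0 in EtOH, and the germ layer sum was 5.16 to 5.57 against 5.84 to 6.15. The primitive endoderm sum was 1.10 to 1.90 TPM over all libraries. The part of these differences in the results below was not tested.

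The 46 genes took 1.68 to 1.72% of all counts in the Day2_EtOH libraries and 1.61 to 1.63% in Day2_OHT. At Day 4 they took 1.78 to 1.86% in EtOH and 1.71 to 1.75% in OHT. The ranges of OHT and EtOH did not overlap on either day, with the lower share in OHT. Their summed TPM did overlap on both days, at 7195 to 7805 in OHT against 7642 to 7907 in EtOH at Day 2 and 8265 to 8471 against 8444 to 9295 at Day 4. Npm1 alone had 3223 of the mean 7742 summed TPM in Day2_EtOH, so these sums lean on 1 gene. These are relative amounts, and in bulk RNA less RNA per cell and fewer cells of a type cannot be told apart.

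Levels between genes were compared as TPM, which is per transcript length. In the Day2_EtOH libraries the order ran from Npm1 (3223 ± 17.0 TPM), the abundant nucleolar chaperone nucleophosmin, to Rrp12 (22.1 ± 0.23 TPM), an export factor of the small subunit. Nop58 (560.5 ± 12.4), Ncl (405 ± 41.4), Nop56 (325 ± 9.54), Nhp2 (258 ± 3.28) and Gnl3 (201 ± 3.26) followed Npm1, each apart from the next by more than their summed SDs. Among all 45 pairs of neighbours in the order, 16 were apart by that measure and 29 were not. Polr1a, the catalytic subunit of RNA polymerase I, ranked 38 of 46 at 34.9 ± 1.99 TPM and was within the spread of its neighbours Nop14 and Ltv1. The median of the 46 means was 73.7 TPM.

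**Figure D1:**
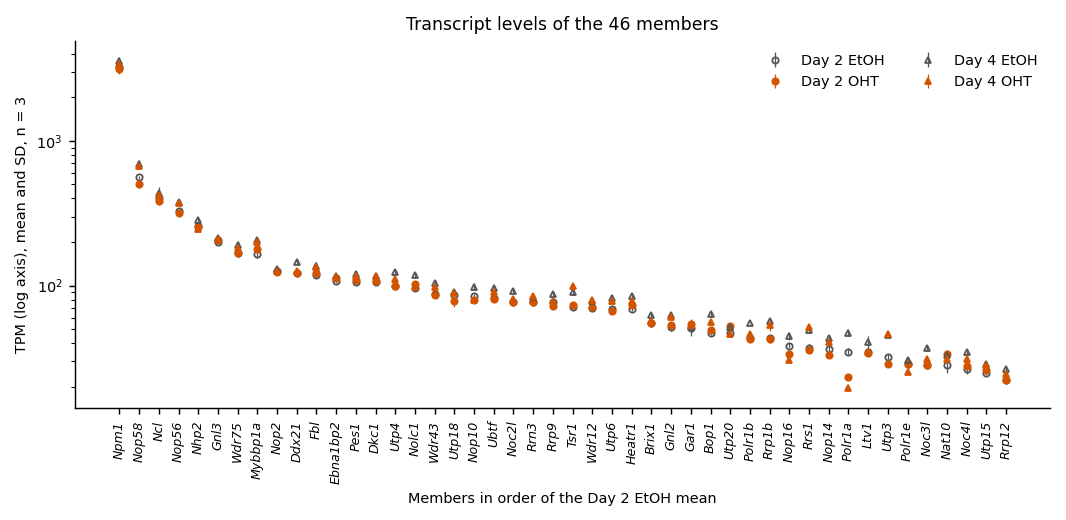
Transcript level (TPM, log axis, mean with SD, n = 3) of each of the 46 genes in the 4 groups, in order of the Day2_EtOH mean. Npm1 lies far above the rest at 3223 TPM, the genes from Gnl3 to the end lie between 201 and 22.1 TPM in Day2_EtOH, and Polr1a shows the widest gap between the OHT and the EtOH symbols.

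The first comparison asked how the pathway stood in the OHT libraries at Day 2. None of the 46 genes rose and 14 fell (30.4%), at an adjusted p below 0.05 in a fit over all genes. Of all 11644 genes tested, 9.23% rose and 10.8% fell. The log2 fold change was below 0 for 41 of the 46, with a median of −0.0857 against −0.0285 over all genes tested. Normalised counts of the OHT libraries were all below those of EtOH for 30 genes and all above for none, while over all genes tested 27.4% did not overlap in the lower direction and 18.7% in the higher. The fall was small in most: apart from Polr1a, the 14 lay between −0.10 (Wdr43) and −0.26 (Nop16).

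Scaling by total counts left 8 of the 46 lower and 1 higher at Day 2, and moved the higher share of all called genes from 46.1 to 68.5%. Without Day2_EtOH replicate 1, 9 were lower. Calls for Polr1a, Nop16, Utp18 and Nop14 were made under each of the 14 alternatives run at Day 2. Wdr43 lost its call in 10 of the 14 and Polr1b in 9.

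At Day 4, 20 of the 46 fell (43.5%) and 1 rose, where 21.7% of all 11555 genes tested fell and 23.6% rose. The value was below 0 for 35 of the 46, and the median was −0.0703 against 0.0063 over all genes. OHT and EtOH libraries did not overlap for 23 genes in the lower direction and 1 in the higher, while 29.8% and 33.1% of all genes tested did not overlap. Of the 21 calls, 17 were made under each of the 14 alternatives run at Day 4, and those for Heatr1, Ubtf, Utp6 and Brix1 were not. The Day4_EtOH replicate 1 library stood above its group mean for 43 of the 46 genes; without it 19 fell and 3 rose.

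Falls were called on both days for 7 genes and at Day 2 alone for 7. A further 14 were called at Day 4 alone, Tsr1 among them, and 18 on neither day. The 7 called on both days are Polr1a, Polr1b, Ubtf, Nop10, Utp6, Rrp9 and Nop16. No gene was called in opposite directions. The matching shares over all genes tested were not counted. A call on 1 day alone is no test of a difference between the days, for which the treatment-by-day term is given below. The absolute log2 fold change passed 1 for 1 gene on 1 day, Polr1a at Day 4.

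**Figure D2:**
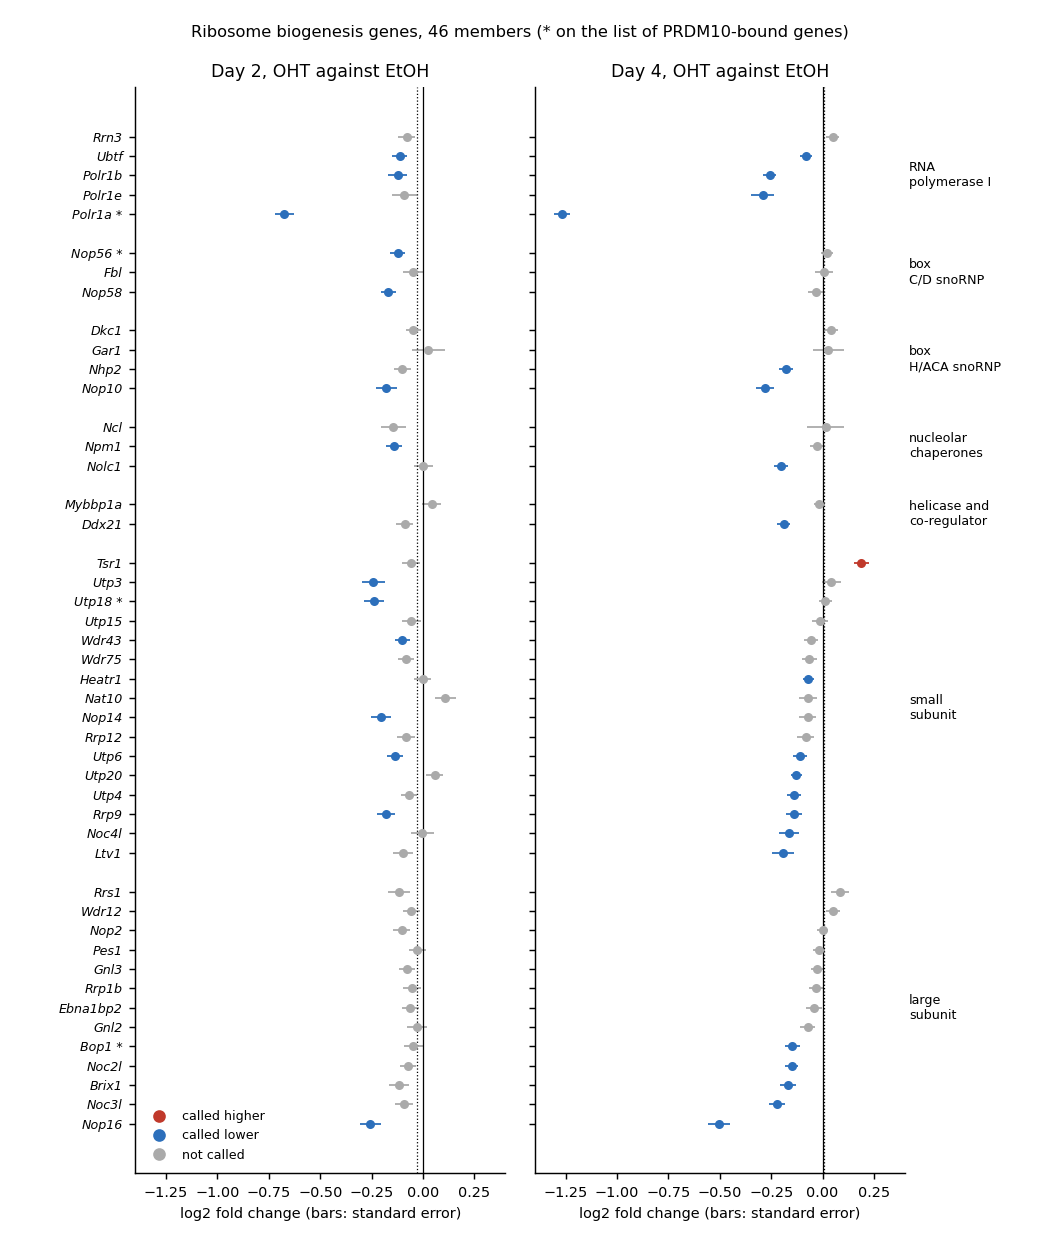
Log2 fold change, OHT against EtOH, of each gene at Day 2 (left) and Day 4 (right) by role, with its standard error; blue is called lower, red called higher, grey not called, and the dotted line is the median over all genes tested. Polr1a stands apart on both days, 14 genes are blue at Day 2 and 20 at Day 4, and Tsr1 at Day 4 is the single red point.

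Of the RNA polymerase I genes, 3 of 5 were lower at Day 2 and 4 of 5 at Day 4, beside 10.8% and 21.7% of all genes tested. Polr1a encodes the largest subunit of the enzyme (ENSMUSG00000049553.11, GRCm38.p6 chr6:71909053-71984935, plus strand). Its normalised counts were 6790, 7203 and 6887 in Day2_EtOH and 4263, 4272 and 4543 in Day2_OHT. At Day 4 they were 8248, 8698 and 8317 in EtOH and 3456, 3557 and 3482 in OHT. Each OHT library was below each EtOH library of its day, and the OHT level was lower at Day 4 than at Day 2 while the EtOH level was higher, although each day was normalised on its own. Polr1a fell by 37.4% at Day 2 (log2 −0.68, SE 0.05, DESeq2 adjusted p 4.158e-46) and by 58.5% at Day 4 (−1.27, SE 0.04, adjusted p 3.953e-252). In TPM it was 34.9 ± 1.99 and 23.2 ± 0.81 at Day 2, and 47.2 ± 2.72 and 19.6 ± 1.09 at Day 4 (EtOH and OHT, n = 3).

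Polr1b, the second largest subunit, had 7027, 7057 and 6820 normalised counts in Day2_EtOH against 6368, 6162 and 6662 in Day2_OHT, and 8166, 8157 and 8348 in Day4_EtOH against 6822, 6911 and 6911 in Day4_OHT. The libraries did not overlap on either day. It fell by 8.22% at Day 2 (adjusted p 0.0334) and by 16.3% at Day 4 (adjusted p 2.527e-14). Polr1e, a subunit of the dissociable heterodimer, had a log2 fold change of −0.09 at Day 2 with overlapping libraries, not called, and fell by 0.29 at Day 4 (adjusted p 1.158e-06). Ubtf, which binds rDNA and recruits the enzyme, fell by 0.11 at Day 2 and by 0.08 at Day 4, calls lost in 7 and 6 of the 14 alternatives. Rrn3, the factor that makes the polymerase competent to initiate, was not called on either day (−0.08 and 0.05).

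**Figure D3:**
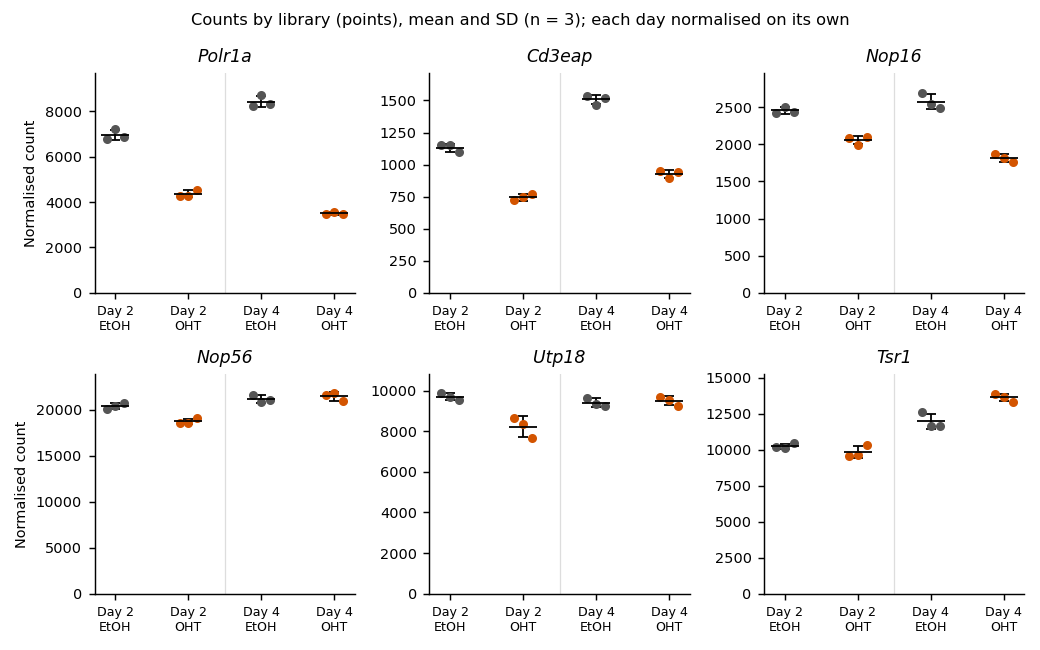
Normalised counts of 6 genes in each library (points, grey EtOH, orange OHT), with the group mean (bar) and SD (n = 3), on linear axes from 0; each day was normalised on its own. Polr1a, Cd3eap and Nop16 are lower in every OHT library of both days, Nop56 and Utp18 at Day 2 with overlapping libraries at Day 4, and Tsr1 is higher in every Day 4 OHT library.

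Polr1a, Nop56, Utp18 and Bop1 are on the study's list of genes bound by PRDM10 in chromatin immunoprecipitation. Nop56 encodes a core protein of box C/D snoRNPs, which guide 2′-O-methylation of rRNA, and Nop58 is its partner. Nop56 (chr2:130274430-130279313, plus strand) had 20061, 20414 and 20690 normalised counts in Day2_EtOH and 18560, 18520 and 19078 in Day2_OHT. At Day 4 it had 21580, 20789 and 21021 in EtOH and 21633, 21781 and 20903 in OHT. The Day 2 libraries were apart and those of Day 4 overlapped. Nop56 fell by 0.12 on the log2 scale at Day 2 (SE 0.04, adjusted p 0.00628) and was not called at Day 4 (0.02, SE 0.03). The Day 2 call was lost with total count scaling and where a trend with gene length was removed (−0.06).

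Utp18, a protein of the small subunit processome (chr11:93859243-93885766, minus strand), had 9902, 9667 and 9555 normalised counts in Day2_EtOH and 8652, 8381 and 7677 in Day2_OHT. Its Day 4 counts were 9663, 9322 and 9264 in EtOH and 9695, 9559 and 9261 in OHT, which overlapped. It fell by 15.2% at Day 2 (adjusted p 2.138e-05) and had a log2 fold change of 0.01 at Day 4, not called. Bop1, a large subunit factor of the complex with Pes1 and Wdr12 (chr15:76452989-76477277, minus strand), was not called at Day 2 (−0.05, overlapping libraries). At Day 4 it had 6221, 6019 and 5936 normalised counts in EtOH and 5505, 5348 and 5555 in OHT, and it fell by 9.71% (adjusted p 0.000297).

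The promoters of the bound genes are shown because they are where a sequence-specific factor on these genes could be read. RefSeq sequences on GRCm38.p6 were found for 39 of the 46 genes, Bop1 not among them. The 250 bases before the start are printed 5′ to 3′ on the gene's strand, with any CACGTG, the E-box of the MYC network, in capitals.
Polr1a, chr6:71908803-71909052, plus strand: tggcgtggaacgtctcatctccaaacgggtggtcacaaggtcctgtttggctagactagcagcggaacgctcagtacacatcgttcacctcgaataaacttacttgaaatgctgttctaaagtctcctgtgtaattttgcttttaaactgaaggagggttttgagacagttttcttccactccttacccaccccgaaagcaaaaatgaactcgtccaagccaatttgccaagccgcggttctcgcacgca
Nop56, chr2:130274162-130274411, plus strand: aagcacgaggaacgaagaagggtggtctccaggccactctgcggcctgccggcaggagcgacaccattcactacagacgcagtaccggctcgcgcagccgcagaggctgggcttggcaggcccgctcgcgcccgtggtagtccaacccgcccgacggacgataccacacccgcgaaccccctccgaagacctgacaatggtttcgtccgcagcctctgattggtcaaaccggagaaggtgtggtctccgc
Utp18, chr11:93885767-93886016, minus strand: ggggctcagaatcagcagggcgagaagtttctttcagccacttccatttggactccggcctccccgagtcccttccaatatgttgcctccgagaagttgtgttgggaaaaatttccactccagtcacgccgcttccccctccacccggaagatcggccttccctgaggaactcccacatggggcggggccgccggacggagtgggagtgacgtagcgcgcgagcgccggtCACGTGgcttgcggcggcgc
Utp18 holds a CACGTG that begins 20 bases before the start, and the stretches of Polr1a and Nop56 hold none.

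The study's gel-shift probes for PRDM10, a wild type and a mutant of 28 bases, differ at the 8 positions in capitals.
WT probe: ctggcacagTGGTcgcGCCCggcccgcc
MUT probe: ctggcacagCAACcgcATTTggcccgcc
The wild-type letters at those positions give the pattern TGGTNNNGCCC, which was searched on both strands of the windows from 250 bases before to 50 after the start, allowing no mismatch. It was in 0 of the 39 windows, against 1.69% of 27025 genes with a RefSeq promoter and 13.2% of the 423 PRDM10-bound genes with one. Only 3 of the 39 windows are of bound genes. With so few windows, 0 matches cannot be told apart from the first share for all 39 or from the second for these 3. A missing match says only that these letters are not in the window. CACGTG, whose reverse complement is itself, was in 10 of 39 (25.6%) against 8.09% of all genes. It was in 12.1% of the bound genes and in 15.7% of 102 other ribosome biogenesis genes. Rrn3, Mybbp1a, Utp4, Utp18, Utp20, Wdr43, Tsr1, Ltv1, Pes1 and Nop2 held it. At Day 4, 3 of those 10 fell and 1 rose, against 15 of the 29 without it that fell, and at Day 2 the falls were 2 of 10 and 10 of 29.

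Among the other box C/D proteins, Nop58 had 25364, 25389 and 25305 normalised counts in Day2_EtOH and 22991, 23022 and 21658 in Day2_OHT. It fell by 11.0% at Day 2 (log2 −0.17, adjusted p 0.0001953) and was not called at Day 4 (−0.03), where the libraries overlapped. Fbl, the methyltransferase fibrillarin, was called on neither day (−0.05 and 0.01). Falls were thus called for 2 of the 3 C/D genes at Day 2 and 0 at Day 4, beside 10.8% and 21.7% of all genes tested. The treatment-by-day term was called for 1 of the 3, Nop56, so no change between the days is shown for the C/D genes as a class.

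In box H/ACA snoRNPs, which guide pseudouridylation, 1 of 4 genes was lower at Day 2 and 2 of 4 at Day 4. Of all genes tested, 10.8% and 21.7% were lower. The treatment-by-day term was called for 0 of the 4 H/ACA genes. Nop10 had 4019, 3753 and 3656 normalised counts in Day2_EtOH against 3414, 3329 and 3364 in Day2_OHT, and 4327, 3917 and 4039 in Day4_EtOH against 3408, 3393 and 3306 in Day4_OHT. The groups were apart on both days. Nop10 fell by 0.18 at Day 2 (adjusted p 0.00493) and by 0.28 at Day 4 (adjusted p 5.084e-09). The Day 2 call was lost in 3 of 14 alternatives: removal of the gene length trend with and without the replicate block, and without Day2_EtOH replicate 1. Nhp2 fell by 11.6% at Day 4 (−0.18) and was not called at Day 2 (−0.10). Dkc1, the pseudouridine synthase dyskerin, and Gar1 were called on neither day.

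Of the nucleolar chaperones, Npm1 had 190777, 189303 and 188042 normalised counts in Day2_EtOH and 178753, 173084 and 163252 in Day2_OHT, all lower. It fell by 9.33% at Day 2 (adjusted p 0.00398) and was not called at Day 4 (−0.03), and the Day 2 call was lost in 4 of 14 alternatives: total counts, removal of the gene length trend with and without the replicate block, and without Day2_EtOH replicate 1. Nolc1, a snoRNP chaperone, was called at Day 4 and not at Day 2. Its Day 4 counts were 14520, 13595 and 13600 in EtOH and 12138, 11908 and 12173 in OHT, and it fell by 13.2% (adjusted p 1.388e-08), after a Day 2 log2 fold change of 0.00 with overlapping libraries. Ncl, nucleolin, was called on neither day; its Day2_EtOH counts spread from 54669 to 65306. Ddx21, a nucleolar RNA helicase, fell by 12.3% at Day 4 (24944, 24946 and 24875 normalised counts in OHT against 29470, 27470 and 28302 in EtOH) and was not called at Day 2 (−0.09). Mybbp1a, a nucleolar co-regulator, was called on neither day.

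Over all genes tested, 10.8% were lower at Day 2, and 21.7% were lower and 23.6% higher at Day 4. Small subunit factors counted 6 of 16 lower at Day 2 and 7 of 16 lower with 1 higher at Day 4. The Day 2 falls were Utp3 (−0.24), Utp18 (−0.24), Nop14 (−0.21), Rrp9 (−0.18), Utp6 (−0.14) and Wdr43 (−0.10). Utp3, a processome protein, had 2205, 2157 and 2330.5 normalised counts in Day2_EtOH and 1866, 1844 and 1952 in Day2_OHT, and at Day 4 2925 to 3086 in OHT overlapped 2836 to 3057 in EtOH. Those of Day 4 were Ltv1 (−0.19), Noc4l (−0.16), Utp4 (−0.14), Rrp9 (−0.14), Utp20 (−0.13), Utp6 (−0.11) and Heatr1 (−0.07). Rrp9 and Utp6 are in both lists. Heatr1, a large processome scaffold, lost its Day 4 call in 10 of 14 alternatives. Nat10, the rRNA acetyltransferase, was called on neither day (0.11 and −0.07).

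Tsr1, a GTPase-like factor of late 40S maturation (ENSMUSG00000038335.13, chr11:74898071-74909342, plus strand), was the single gene that rose. It had 12596, 11645 and 11672 normalised counts in Day4_EtOH and 13888, 13662 and 13356 in Day4_OHT, and every OHT library was above every EtOH library. It rose by 13.9% (log2 0.19, SE 0.04, adjusted p 1.32e-06). At Day 2 it had 10170, 10132 and 10446 in EtOH and 9602, 9615 and 10325 in OHT, which overlapped. Tsr1 holds 2 snoRNA genes on its strand, and 7 of the 46 genes hold 21 in all; reads of a snoRNA and of its host intron were not separated here.

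Large subunit factors counted 1 of 13 lower at Day 2 (7.69%) and 5 of 13 at Day 4 (38.5%). Over all genes tested, 10.8% and 21.7% were lower, so the Day 2 share was not above that of all genes. Nop16, a nucleolar protein of early 60S particles (ENSMUSG00000025869.11, chr13:54584185-54590090, minus strand), had 2427, 2508 and 2439 normalised counts in Day2_EtOH and 2091, 1994 and 2094 in Day2_OHT. At Day 4 it had 2694, 2548 and 2488 in EtOH and 1871, 1822 and 1760 in OHT. The groups were apart on both days. Nop16 fell by 16.2% at Day 2 (adjusted p 4.513e-05) and by 29.5% at Day 4 (log2 −0.50, SE 0.05, adjusted p 4.611e-21). Noc3l (−0.22), Brix1 (−0.17), Noc2l (−0.15) and Bop1 (−0.15) also fell at Day 4. Pes1 and Wdr12, the partners of Bop1, and the GTP-binding protein Gnl3, nucleostemin, were called on neither day.

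Whether the difference itself changed between the days was tested with a treatment-by-day term over all 12 libraries. It was called for 14 of the 46, with a Day 4 difference above that of Day 2 for 6 and below it for 8, where 18.9% and 13.6% of all 11616 genes tested were called. Relative to Day 2, the Day 4 value was lower for Polr1a by 0.59 (−0.59, SE 0.05, DESeq2 adjusted p 9.343e-26), for Nop16 (−0.25, adjusted p 0.001197) and for Nolc1 (−0.20, adjusted p 0.002963). It was higher for Utp3 (0.29, adjusted p 1.363e-04), Utp18 (0.25, adjusted p 1.404e-04) and Tsr1 (0.25, adjusted p 6.272e-05). These 6 were called under each of the 19 alternatives run, and the other 8 were not. The term for Nop58 missed the threshold (0.14, adjusted p 0.0536), as did that for Npm1 (0.12, adjusted p 0.104). Total count scaling gave 4 higher and 15 lower and moved the higher share of all called genes from 58.1 to 44.3%. Without Day4_EtOH replicate 1, 11 were higher, and 4 were lower without Day4_OHT replicate 1 or 2, and 5 without Day4_OHT replicate 3, Day2_OHT replicate 3 or Day2_EtOH replicate 1 or 2.

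**Figure D4:**
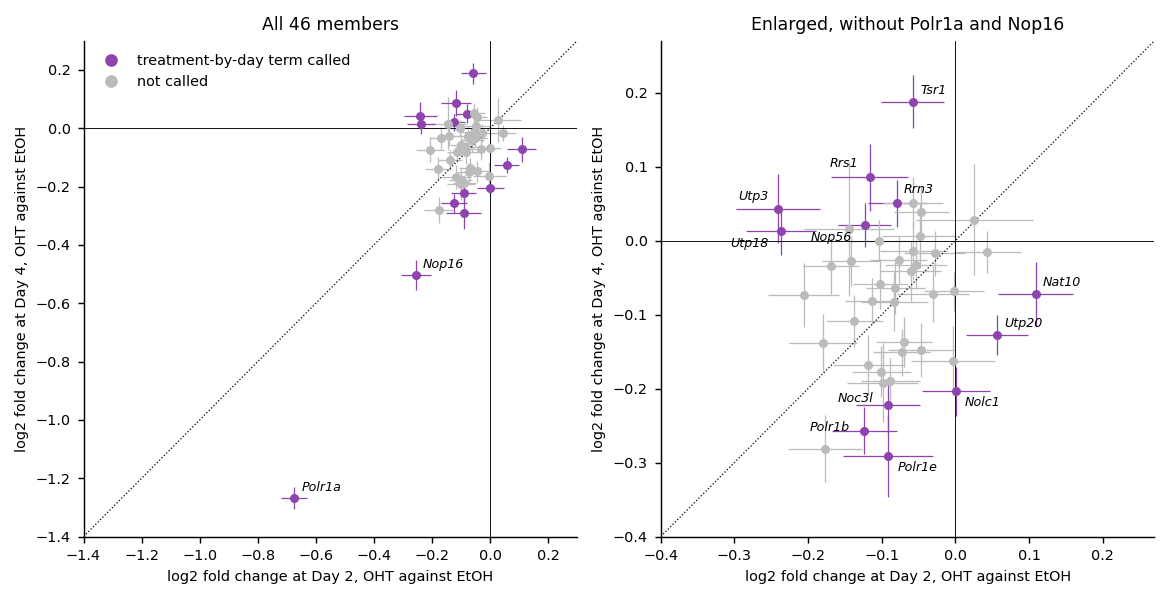
Log2 fold change, OHT against EtOH, at Day 2 (x) and Day 4 (y) for each of the 46 genes with standard errors; the right panel enlarges the centre, purple marks a called treatment-by-day term and the dotted line marks equal values. Polr1a and Nop16 lie below the line in the lower left, Utp3, Utp18 and Tsr1 above it.

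Without 4-OHT, 22 of the 46 genes rose from Day 2 to Day 4 (47.8%), 22 were not called and 2 fell, Nop2 (−0.10) and Gnl3 (−0.11), while 20.6% of all 11572 genes tested rose and 20.5% fell. The median was 0.087 against −0.0015 over all genes. Of the 24 calls, 16 were made under each of the 14 alternatives run. Nop2 lost its call in 7 of the 14 and Gnl3 in 2. Without Day4_EtOH replicate 1, 17 rose and 2 fell. Utp3 rose by 0.38, Rrp1b by 0.30, Rrs1 by 0.28, Noc4l by 0.27, Bop1 by 0.26 and Polr1a by 0.25 on the log2 scale. These libraries are the controls of both treatment comparisons, so the values stand side by side with those and are not independent of them. Harvest day and any batch of harvest cannot be told apart.

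Other genes of the pathway, 121 tested under 125 listed symbols of which 4 are other names of genes in the list, fell in 41 cases at Day 2 (33.9%) and rose in 2, Naf1 (0.28) and Mdn1 (0.21). At Day 4, 60 fell (49.6%) and 11 rose. Their medians were −0.1051 and −0.1131. Cd3eap, another RNA polymerase I subunit and also on the list of bound genes, was lowest on both days. It had 1149, 1150 and 1095 normalised counts in Day2_EtOH and 720, 744 and 774 in Day2_OHT, and 1537, 1468 and 1521 in Day4_EtOH and 946, 895 and 939 in Day4_OHT. Cd3eap fell by 0.60 at Day 2 (SE 0.07, adjusted p 1.593e-14) and by 0.70 at Day 4 (SE 0.06, adjusted p 5.391e-28), and its treatment-by-day term was not called (adjusted p 0.433). Next lowest were Esf1 at Day 2 (−0.28) and Znhit3 at Day 4 (−0.41). Ngdn was higher at Day 4 (0.28), and Exosc6 was called higher at Day 4 from 0, 0 and 9.19 normalised counts in EtOH to 561 to 645 in OHT, a value that is uncertain, since the posterior SD that RSEM gave reached 932% of the count, and for which no fold is given.

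**Figure D5:**
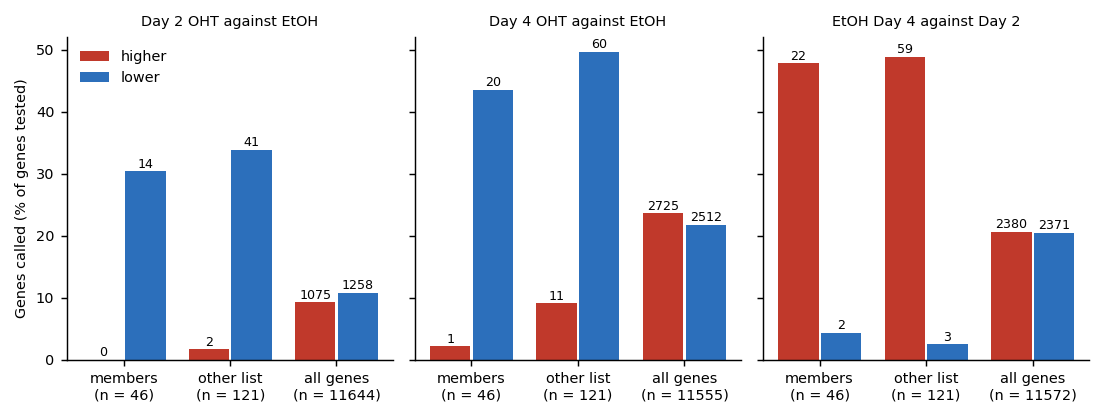
Share of genes called higher (red) and lower (blue), in percent of genes tested, for the 46 genes, the 121 other pathway genes and all genes tested, in 3 comparisons; the number over a bar is its count of genes. Blue exceeds red for both pathway lists in the OHT comparisons of both days, red exceeds blue for them between the days in EtOH, and for all genes red and blue are of nearly equal height in each panel.

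The MYC network, which regulates many ribosome biogenesis genes through E-boxes, was tested in 9 of 10 genes, those above the minimum mean normalised count. Of the 9, 1 fell and 2 rose at Day 2, against 10.8% and 9.23% of all genes tested. At Day 4, 4 fell and 0 rose, against 21.7% and 23.6%. Mycn had 4738, 4538 and 4462 normalised counts in Day2_EtOH and 3778, 3635 and 3558 in Day2_OHT, and 4658, 4606 and 4558 in Day4_EtOH and 3546, 3235 and 3297 in Day4_OHT. It fell by 0.32 at Day 2 (adjusted p 7.234e-10) and by 0.46 at Day 4 (adjusted p 1.876e-24). Myc was not called at Day 2 (−0.08, SE 0.12). At Day 4 it had 1042, 1069 and 956 normalised counts in EtOH and 771, 801 and 821 in OHT, and it fell by 0.36 (adjusted p 7.054e-06). In EtOH, Myc was higher at Day 4 than at Day 2 by 1.59 on the log2 scale (SE 0.09). Max (−0.23) and Mlx (−0.24) fell at Day 4, and Mnt (0.55) and Mga (0.12) rose at Day 2. The part of Mycn or Myc in the values of the 46 genes was not tested.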

How the data were processed

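Total RNA of the 12 libraries was prepared with a stranded total RNA kit. Per the labels and the methods, the authors aligned reads to GRCm38.p6 with STAR 2.6.0c and quantified genes with RSEM; they deposited an expected count and a TPM per gene and library, and these are the values used. The deposited tables of the authors' own comparisons hold fold changes and p-values and served only to pair gene IDs with symbols. Expected counts were rounded and tested with DESeq2 1.42.0 (R 4.3.3): Wald test, median-of-ratios scaling, OHT against EtOH within each day (6 libraries), a treatment-by-day term over all 12, and EtOH Day 4 against Day 2. A gene was called at a Benjamini-Hochberg adjusted p below 0.05 over all genes and a mean normalised count above 100. Fold changes were not shrunken. The fits were run on simulated data whose changes were each larger than that of any of the 46 genes other than Polr1a. That run does not show how well smaller changes are found. Replicates differed beyond sampling noise in every pair. The 46 genes, the lists and the motifs were chosen with earlier results of these data known. Named genes are the genes bound by PRDM10, the called genes with the highest and lowest values, the best-known members of each role and those with the smallest interaction p; other members were named after their values were seen. Alternatives were edgeR 4.0.16 (quasi-likelihood), TMM and total count scaling, effective length offsets, removal of a gene length trend (loess span 0.3), a replicate block, 1 fit of all libraries, no minimum mean, and leaving out each library. Gene coordinates are those of the reference annotation, and promoters those of RefSeq, on GRCm38.p6. Depth was at least 35017667 expected counts a library.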

Additional observations from a re-analysis of the deposited data

Results flagged for a closer look

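For 14 of the 46 genes the OHT against EtOH difference itself differed between the days by the treatment-by-day term of DESeq2 over 12 libraries. The term was called higher for 13% of the 46 and lower for 17.4%. Among all 11616 genes tested these shares were 18.9% and 13.6%, so a called term is not particular to these genes. The Day 4 value minus the Day 2 value, on the log2 scale, was −0.59 for Polr1a, −0.25 for Nop16, −0.20 for Nolc1, −0.20 for Polr1e, −0.18 for Utp20, −0.18 for Nat10, −0.13 for Polr1b and −0.13 for Noc3l. It was 0.29 for Utp3, 0.25 for Utp18, 0.25 for Tsr1, 0.20 for Rrs1, 0.15 for Nop56 and 0.13 for Rrn3. Of these, Rrn3, Nat10 and Rrs1 were called on neither day alone. The call was lost in 13 of 19 alternatives for Noc3l, 11 for Polr1b, 10 for Polr1e, 7 each for Rrn3 and Nat10, 5 for Rrs1 and 2 each for Nop56 and Utp20.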

How the results depend on the processing

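No fold change of the 46 genes that was called turned its direction under any alternative run. At Day 2, 581 of 644 values stayed on their side of the threshold, 41 fell below it and 22 rose past it; at Day 4 these were 619, 18 and 7 of 644. Under edgeR, 1 gene was higher at Day 2, 2 were higher at Day 4 and 10 had a higher treatment-by-day term. Total counts gave 1 higher and 8 lower at Day 2 with a median of −0.0482, 15 lower treatment-by-day terms and 1 lower gene between the EtOH days. Effective length offsets gave 4 lower terms and 0 lower between the EtOH days. Same-number correlations of deviations between EtOH and OHT replicates were 0.149, 0.105 and −0.08 at Day 2 and 0.33, 0.05 and −0.13 at Day 4. Different-number correlations ran from −0.30 to 0.27 at Day 2 and from −0.40 to 0.38 at Day 4. With 3 libraries a group, these values cannot decide whether replicate numbers pair the libraries. With the replicate block 12 genes were lower at Day 2, 18 lower and 1 higher at Day 4, and 8 terms were higher and 5 lower. The block with the gene length trend removed gave 7 lower at Day 2 and 1 lower between the EtOH days. The cause of these shifts was not tested. Leaving out 1 library each gave 0 to 1 higher and 9 to 15 lower at Day 2 (median −0.0909 to −0.0796), 1 to 3 higher and 18 to 20 lower at Day 4 (median −0.0765 to −0.0433), 4 to 11 higher and 4 to 8 lower terms, and 16 to 22 higher and 0 to 2 lower between the EtOH days. With 3 libraries a group, small differences may miss the threshold.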
